A study of Arabidopsis thaliana with 10 samples.

Results

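The genes described here are 33 Arabidopsis loci of carotenoid synthesis and cleavage, tocopherol synthesis and the supply of precursors for both. They were chosen by locus identifier from pathway knowledge, as the rows of the listed genes among the 33557 gene rows measured in each library. The choice was made with earlier results of these data known. By role, 7 belong to the MEP (methylerythritol phosphate) pathway, 3 make prenyl diphosphates, and 6 take these to lycopene or, for OR, act on the first enzyme of that series. A further 2 close the rings of lycopene, 4 hydroxylate those rings, 3 form or remove xanthophyll epoxides, 2 cleave carotenoids and 6 make tocopherols. Messenger RNA was sequenced from whole Columbia (Col-0) seedlings, 4 days old, raised throughout under continuous blue light at a fluence rate of 1 µmol m-2 s-1. There were 10 libraries, 2 biological replicates from each of 5 genotypes. The genotypes were the wild type (WT), the mutant cry2-1, an overexpressor of the blue-light receptor CRY2 (CRY2oe), an overexpressor of the deubiquitinase UBP13 (UBP13oe) and a line labelled as the double mutant of UBP12 and UBP13 (ubp12ubp13). By its title, the series is about CRY2 stability under UBP12 and UBP13 and its effect on growth. The promoters of the overexpressors, the number of lines and the ubp alleles were not stated in the labels.

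The MEP pathway runs in plastids and makes the isoprenoid building blocks from pyruvate and glyceraldehyde phosphate, with DXS as the enzyme that largely sets its flux. Geranylgeranyl diphosphate made from these blocks is shared by carotenoids, the phytyl tails of chlorophyll and tocopherol, and other plastid products. PSY (phytoene synthase) commits it to carotenoids, and OR is a chaperone of the PSY protein. In green tissue carotenoids protect the photosystems and widen the light they capture, and tocopherols (vitamin E) protect membrane lipids. Light raises PSY transcription in seedlings, where phytochrome-interacting factors (PIFs) repress it and HY5 activates it.

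Levels are given in FPKM, the deposited fragments per kilobase of transcript scaled to the library total, which allows levels of different genes to be compared per length. Pairs of values are replicates 1 and 2. Differences were tested as log2(FPKM + 1) with limma over all genes that reached 1 FPKM in 2 or more libraries, and a gene was called at a Benjamini-Hochberg adjusted p under 0.05. Because the median of all genes moved between genotypes on the deposited scale (by 0.12 in cry2-1 and 0.15 in UBP13oe on the log2 scale, and by 0.09 in the libraries labelled ubp12ubp13 and 0.05 in CRY2oe), counts after rescaling each library by its median ratio are set beside the main ones. All 33 genes passed the filter on low values, and none was at 0 in any library. Their lowest library value was 3.68 FPKM, for VTE2 in cry2-1 replicate 1.

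Depth, estimated from the steps between low FPKM values, lay between 15.9 and 31.2 M fragments, so that 3 fragments on 1 kb amount to 0.0961 to 0.189 FPKM by counting error alone. CRY2 was listed at 0 and 0.0187 FPKM in cry2-1, at 109.8 and 120.0 in WT and at 3923 and 3808 in CRY2oe. AT1G04410, the locus next to CRY2, was at 0.114 and 0.0564 FPKM in CRY2oe and listed at 0 in both cry2-1 libraries, against 435 and 443 in WT, so these lines also differ from WT beside CRY2. UBP13 was at 69.0 and 66.1 FPKM in UBP13oe and 27.1 and 28.3 in WT, and still at 24.2 and 23.6 in the libraries labelled ubp12ubp13. UBP12 was at 397 FPKM in replicate 1 of that label and had a failed estimate in replicate 2, against 35.0 and 34.8 in WT. Neither level was lost, but FPKM of a whole gene cannot show whether its transcript is intact, and the alleles were not stated. The genotype was therefore not checked by these values, and the samples are called the libraries labelled ubp12ubp13. The plastid genome's own genes took 8.57% and 11.2% of summed FPKM in WT, 9.06% and 9.58% in UBP13oe and between 15.5% and 18.0% in the other 6 libraries. All 3 markers of green tissue, 7 of root and 6 of seed were above 0 in every library; the seed markers summed to between 2.61 and 19.5 FPKM.

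Promoter sequence is shown first, with BCH2 in full, since BCH2 had the largest rise of the 33 in the libraries labelled ubp12ubp13. In the 300 bases before the annotated start (RefSeq, TAIR10.1), the G-box CACGTG, a site known to be bound by PIFs and HY5, was searched on both strands, which read alike. It was present for 4 of the 33 genes, 12.1%, against 7.09% of 27443 protein-coding genes. The related PBE-box CACATG, which cannot match at the same position as the G-box, was searched on both strands and present for 6 genes (DXS, HDS, HDR, BCH2, VTE3 and VTE4), 18.2%, against 13.1% of all. The G-box sites of MDS of the MEP pathway, the ring hydroxylase BCH2 and VTE2 of tocopherol synthesis are shown so that the bases around the shared word can be compared; they are not all of the sites found, and nothing about the direction of change is read from them. They are written 5′ to 3′ on the strand of the gene with the G-box in capitals; those of MDS and BCH2 lie on the minus strand.
MDS, chr1:23740479-23740514, G-box from base 115 before the start: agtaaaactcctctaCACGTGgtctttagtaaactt
BCH2, chr5:21337257-21337292, G-box from base 151 before the start: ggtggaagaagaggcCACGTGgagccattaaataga
VTE2, chr2:8207059-8207094, plus strand, G-box from base 125 before the start: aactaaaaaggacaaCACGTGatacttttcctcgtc
The whole window of BCH2, the gene that rose most, follows.
BCH2, chr5:21337127-21337426, minus strand: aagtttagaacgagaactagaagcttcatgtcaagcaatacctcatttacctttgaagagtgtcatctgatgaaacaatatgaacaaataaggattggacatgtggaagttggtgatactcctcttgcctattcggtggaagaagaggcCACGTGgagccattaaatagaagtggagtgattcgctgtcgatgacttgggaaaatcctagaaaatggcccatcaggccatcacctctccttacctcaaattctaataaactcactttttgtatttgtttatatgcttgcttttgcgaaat
No G-box lay in the windows of PSY, DXS, ZEP, VDE, CCD4 or VTE1, which says only that these letters are not in that stretch.

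**Figure D1:**
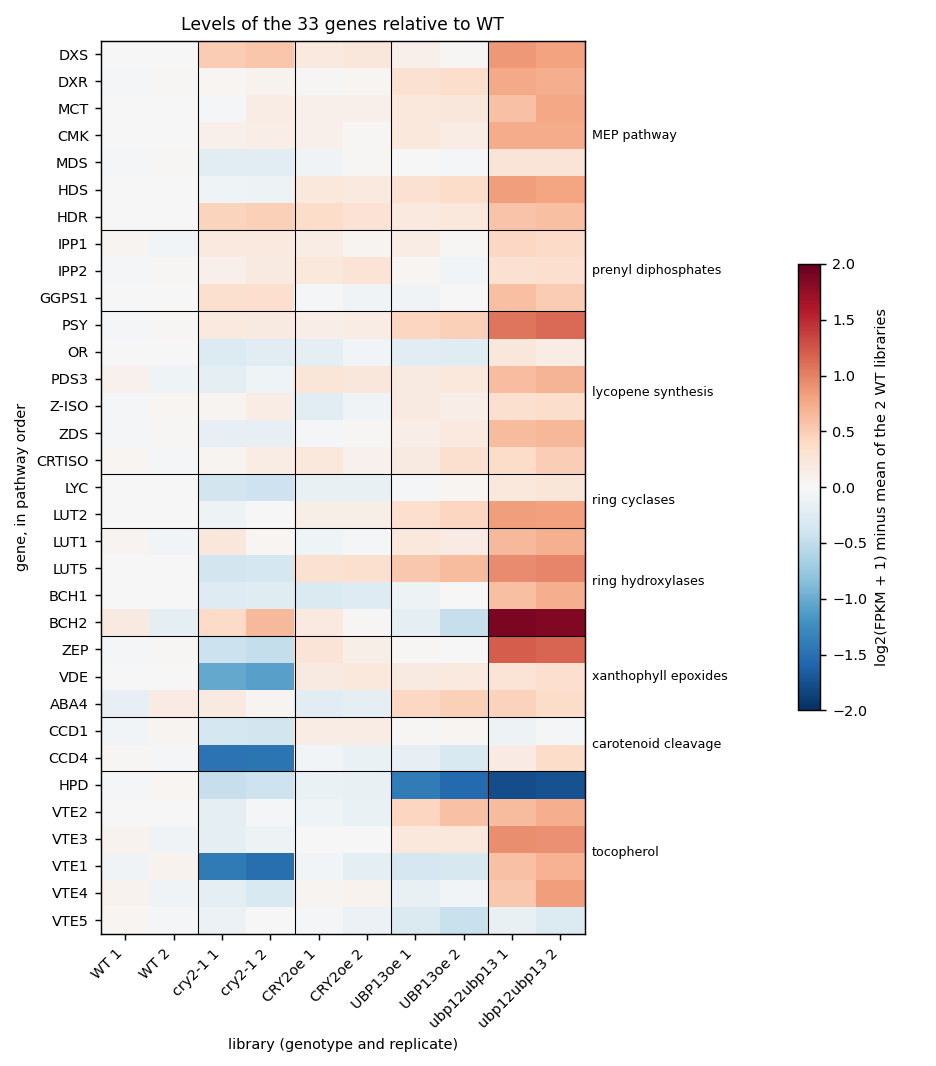
Levels of the 33 genes (rows, in pathway order) in the 10 libraries (columns), as log2(FPKM + 1) minus the mean of the 2 WT libraries. Red is above WT and blue below: the last 2 columns, labelled ubp12ubp13, are red in nearly every row except HPD, CCD1 and VTE5, and the cry2-1 columns are darkest blue at CCD4, VTE1 and VDE.

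The libraries labelled ubp12ubp13 held most of these transcripts at a higher level than WT. In them 30 of the 33 genes rose and 2 fell, where 34.6% of the 19955 genes tested were called higher and 22.2% lower. After rescaling 28 rose and 3 fell, against 26.9% and 29.2% of all genes. The median log2 difference was 0.64 over the 33 genes and 0.09 over all genes. Both libraries lay above all 8 others for 29 of the 33 genes, as they did for 20.7% of all genes. Of the 32 calls, 28 held under every one of 19 alternatives, the exceptions being OR, ABA4, CCD4 and VTE5.

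All 7 MEP pathway genes rose in the libraries labelled ubp12ubp13. DXS (AT4G15560, TAIR10 chromosome 4, 8883907 to 8887565) was at 280.3 and 268 FPKM there and at 154 and 153 in WT (log2 difference 0.83 ± 0.05 (SE), limma adjusted p = 3.13e-06). Its level in the other 3 genotypes ran from 155 to 225 FPKM, so the libraries labelled ubp12ubp13 stood clear of all others. DXR, which makes methylerythritol phosphate itself, was at 66.5 and 64.8 against 38.5 and 39.4 FPKM. HDS, the iron-sulphur enzyme before the last step, was at 152 and 146 against 84.8 and 84.0 FPKM, 1.77-fold the WT mean. CMK and MCT, of the middle steps, stood at 1.73-fold and 1.68-fold the WT mean, HDR, the last enzyme, at 1.50-fold, and MDS least, at 1.20-fold. Summed over the pathway, the level was 761 and 748 FPKM against 458 and 458 in WT. GGPS1, the main plastid geranylgeranyl diphosphate synthase, whose locus overlaps another by 451 bases and whose level is therefore uncertain, was at 56.1 and 52.7 against 37.0 and 36.5 FPKM (log2 difference 0.55 ± 0.05 (SE), limma adjusted p = 2.94e-05), and the isomerase genes IPP1 and IPP2 rose by 0.40 and 0.32 on the log2 scale.

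From geranylgeranyl diphosphate to lycopene, 6 of 6 genes rose, led by PSY. PSY (AT5G17230, TAIR10 chromosome 5, 5659574 to 5662865) was at 140.4 and 147 FPKM against 65.3 and 67.2 in WT (log2 difference 1.11 ± 0.04 (SE), limma adjusted p = 5.84e-07), with no overlap with any other library. PDS3, the phytoene desaturase, was at 55.8 and 58.3 against 38.3 and 34.2 FPKM, and ZDS, which desaturates zeta-carotene, at 82.8 and 84.2 against 51.9 and 54.0. Both therefore stood about as far above WT as each other, by 0.64 and 0.65 on the log2 scale. The isomerase genes CRTISO and Z-ISO were at 0.43 and 0.33. OR moved least, with 88.1 and 83.9 FPKM against 74.8 and 75.8 (log2 difference 0.19), and its call was lost after rescaling (limma adjusted p = 0.219) and without replicate 1 of the labelled line (0.0690).

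After lycopene, the branch to lutein and the branch to beta-carotene both rose. LUT2, the epsilon-cyclase of the lutein branch, was at 46.1 and 45.6 against 25.2 and 25.5 FPKM, and the beta-cyclase gene LYC, used in both branches, at 59.6 and 61.1 against 51.4 and 51.5. The difference of LYC was thus the smaller (0.23 against 0.83 for LUT2, log2). Among the ring hydroxylases, the P450 genes LUT5 and LUT1 were at 46.9 and 47.9 against 24.2 and 23.7 FPKM and at 12.7 and 13.2 against 8.05 and 7.34. The LUT1 locus overlaps a neighbour by 1900 bases, so its values are uncertain.

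BCH1 and BCH2 encode the pair of non-haem beta-ring hydroxylases and moved by unequal amounts. BCH2 (AT5G52570, TAIR10 chromosome 5, 21334793 to 21337002) was at 41.4 and 40.5 FPKM against 12.0 and 9.20 in WT, 3.86-fold higher (log2 difference 1.86 ± 0.14 (SE), limma adjusted p = 1.66e-05). BCH1 was at 78.3 and 85.3 against 50.8 and 51.7 FPKM (log2 difference 0.66 ± 0.05 (SE), limma adjusted p = 1.88e-05). The level of BCH2 was 0.529 and 0.475 of that of BCH1 in the libraries labelled ubp12ubp13, 0.237 and 0.178 in WT and 0.189 and 0.146 in UBP13oe. Their coding sequences share 83.1% of 888 aligned bases, with at most 33 identical bases in a row, and how fragments that match both were counted was not stated, so the split between them is uncertain.

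The xanthophyll epoxide genes act in opposite directions on zeaxanthin: ZEP adds epoxides and VDE, in strong light, removes them. ZEP (AT5G67030, TAIR10 chromosome 5, 26753510 to 26757236) was at 171 and 166 FPKM against 72.6 and 74.3 in WT, 2.29-fold higher (log2 difference 1.19 ± 0.05 (SE), limma adjusted p = 1.01e-06). VDE was at 58.2 and 61.3 against 48.3 and 47.9 FPKM, a smaller rise of 0.31 on the log2 scale. ABA4, needed for neoxanthin, was at 32.6 and 30.5 against 20.9 and 26.5 FPKM, and its call was lost in a fit to the 4 WT and ubp12ubp13 libraries alone. Of the cleavage dioxygenase genes, CCD4 was at 41.9 and 48.4 against 38.1 and 36.7 FPKM, with the call lost in 4 alternatives, rescaling among them. CCD1, whose enzyme is cytosolic, was not called (-0.07 ± 0.05 (SE), limma adjusted p = 0.229), with 136 and 143 FPKM against 141 and 152.

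The tocopherol genes divided. HPD makes homogentisate, the head group of tocopherols and plastoquinone and also an intermediate of tyrosine breakdown. HPD (AT1G06570, TAIR10 chromosome 1, 2011885 to 2013545) was at 72.7 and 74.1 FPKM against 244 and 257 in WT, 0.293 of the WT mean (log2 difference -1.76 ± 0.06 (SE), limma adjusted p = 4.35e-07). It was the only one of the 33 genes with both of these libraries below all 8 others, which 19.4% of all genes showed. By contrast the genes of the later steps rose: VTE2, which joins the head group to the tail, to 7.17 and 7.71 from 4.29 and 4.27 FPKM, and the methyltransferase VTE3 to 233 and 229.7 from 128 and 116. The tocopherol cyclase VTE1 rose to 27.9 and 30.1 from 17.2 and 19.3 FPKM and the last methyltransferase, VTE4, to 14.8 and 18.6 from 10.5 and 9.41. VTE5, a phytol kinase, was at 29.5 and 27.1 against 33.9 and 31.9 FPKM (log2 difference -0.21 ± 0.07 (SE), limma adjusted p = 0.038), a call lost in 9 alternatives.

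Markers of green tissue were also higher in these libraries. All 3 rose in the libraries labelled ubp12ubp13, where RBCS1A was at 9734 and 9671 FPKM against 5189.9 and 5061 in WT, CAB3 at 5212 and 4581 against 1464 and 1199 and LHCB2.1 at 2087 and 1811 against 884 and 727. Their summed level was 17033 and 16062 FPKM, against 6987 to 9486 in WT, CRY2oe and UBP13oe and 6161 and 6311 in cry2-1. The 7 root markers summed to 213 and 210.5 FPKM against 360.4 and 335 in WT, with the 4 endodermal ones lower and the root hair genes COBL9 and EXPA7 higher. The part of either marker set in these results was not tested. In whole seedlings, fewer cells of a type and less RNA per cell cannot be told apart.

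**Figure D2:**
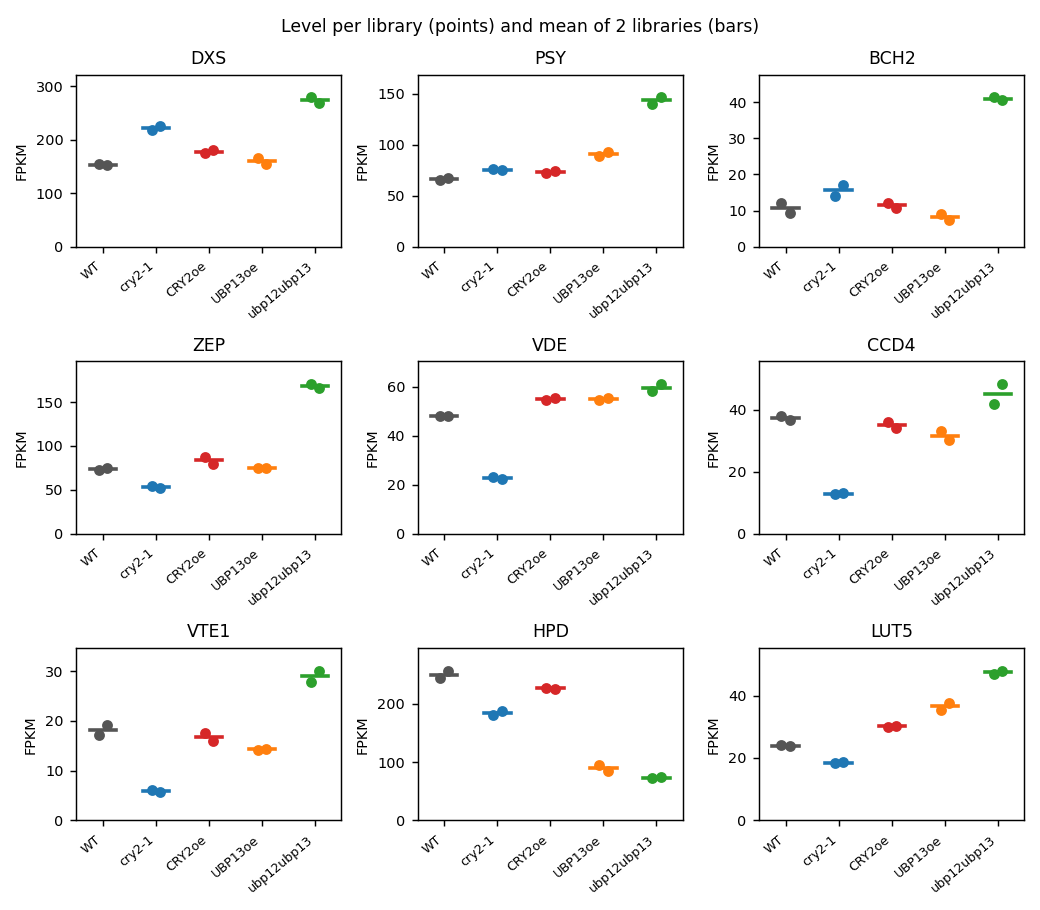
Levels in FPKM (vertical axes, from 0) of 9 genes in each genotype; points are the 2 libraries and bars their mean. BCH2, ZEP and PSY are highest in the libraries labelled ubp12ubp13, VDE, CCD4 and VTE1 are lowest in cry2-1, and HPD is low in both UBP lines, from 72.7 to 94.7 FPKM.

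In UBP13oe fewer of the genes differed from WT, and HPD by far the most. There 14 rose and 5 fell against WT, where 35.2% and 8.74% of 19956 genes were called higher and lower. Rescaled, 6 rose and 13 fell, against 17.2% and 19.9% of all genes, so the split of the smaller changes depends on the scale. The median log2 difference of the 33 genes was 0.15, as was that of all genes. Of the 19 calls, 9 held under all 19 alternatives, namely rises of DXR, HDS, PSY, LUT2, LUT5 and VTE2 and falls of OR, HPD and VTE5.

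HPD had the largest change in UBP13oe, with 94.7 and 84.7 FPKM against 244 and 257 in WT (log2 difference -1.47 ± 0.06 (SE), limma adjusted p = 1.46e-05). It therefore stood low in both UBP lines, 0.358 of WT in the overexpressor and 0.293 in the libraries labelled ubp12ubp13, which lay lower still. The P450 gene LUT5 was at 35.3 and 37.7 against 24.2 and 23.7 FPKM (log2 difference 0.59 ± 0.05 (SE), limma adjusted p = 0.000107). VTE2, of tocopherol synthesis, was at 6.11 and 6.96 against 4.29 and 4.27 FPKM (log2 difference 0.51 ± 0.09 (SE), limma adjusted p = 0.00226). LUT5 and VTE2 were named under a rule that requires no overlap with WT, so their separation from WT is no result. PSY was at 89.5 and 92.6 against 65.3 and 67.2 FPKM (log2 difference 0.45 ± 0.04 (SE), limma adjusted p = 0.000186), between WT and the libraries labelled ubp12ubp13. DXS did not pass the test (165 and 155 FPKM, 0.06 ± 0.05 (SE), limma adjusted p = 0.317). BCH2 was at 9.04 and 7.40 FPKM and not called against WT (limma adjusted p = 0.0947). OR fell to 64.2 and 63.6 FPKM, and VTE5 to 26.7 and 23.8 FPKM. VTE1 was at 14.2 and 14.3 FPKM (log2 difference -0.33), a call lost without WT replicate 2. Green-tissue markers in UBP13oe summed to 8373 and 8288 FPKM and root markers to 475 and 445. By mean RBCS1A and CAB3 were at 1.19 and 1.14 of WT but LHCB2.1 at 0.851. The root markers CASP5 and RHD6 were at 0.998 and 0.936 of WT, and the other root markers above it. The 6 seed markers summed to 3.41 and 2.61 FPKM there, against 19.5 and 13.7 in WT, and all 4 of them that passed the filter on low values were called lower. Their sum was also below WT in cry2-1 (7.40 and 7.88) and CRY2oe (6.87 and 4.64), and was 8.82 and 18.3 in the libraries labelled ubp12ubp13. The WT replicates differed from each other, with OLEO1 at 3.16 and 0.757 FPKM and CRA1 at 3.82 and 0.683. The part of these markers in the results was not tested.

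In cry2-1 the carotenoid dioxygenase CCD4, the tocopherol cyclase VTE1 and the de-epoxidase VDE fell most, to well under WT. In all, 7 genes rose and 12 fell against WT, where 31.7% and 11.8% of 19956 genes were called higher and lower. Rescaled, 3 rose and 17 fell, against 16.1% and 20.7%. The median log2 difference was -0.10 over the 33 genes and 0.12 over all genes (-0.23 and -0.01 rescaled). Both cry2-1 libraries lay below all 8 others for 13 of the 33 genes, as they did for 8.61% of all genes, and above all others for none (13.7% of all genes). The WT libraries were the lowest for 6 genes (DXS, DXR, CMK, HDR, PSY and CRTISO; 16.5% of all genes) and the highest for HPD (4.24%). The CRY2oe libraries were the highest for CCD1 (4.74%) and the lowest for Z-ISO and ABA4 (6.41%), and the UBP13oe libraries the lowest for BCH2 and VTE5 (2.82%) and the highest for none (12.9%). Of the 19 calls, 14 held under all 19 alternatives. They were the rises of DXS, HDR and GGPS1 and the falls of MDS, OR, LYC, LUT5, BCH1, ZEP, VDE, CCD1, CCD4, HPD and VTE1.

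CCD4 (AT4G19170, TAIR10 chromosome 4, 10481786 to 10483857), a plastid dioxygenase that cleaves beta-carotene, was at 12.8 and 13.0 FPKM in cry2-1 against 38.1 and 36.7 in WT, 0.344 of the WT mean (log2 difference -1.47 ± 0.07 (SE), limma adjusted p = 7.47e-06). VTE1 (AT4G32770, TAIR10 chromosome 4, 15804914 to 15807982) was at 6.21 and 5.74 against 17.2 and 19.3 FPKM, 0.328 of the WT mean (log2 difference -1.46 ± 0.08 (SE), limma adjusted p = 7.48e-06). VDE (AT1G08550, TAIR10 chromosome 1, 2706924 to 2709531) was at 23.3 and 22.2 against 48.3 and 47.9 FPKM (log2 difference -1.05 ± 0.04 (SE), limma adjusted p = 3.53e-06). Every other library was higher for all of them: the next lowest value was 30.2 FPKM for CCD4, 14.2 FPKM for VTE1 and 47.9 FPKM for VDE. They were named under a rule that requires no overlap with WT, so their separation from WT is no result. ZEP was at 54.3 and 52.4 against 72.6 and 74.3 FPKM (log2 difference -0.45 ± 0.05 (SE), limma adjusted p = 0.00029), so both enzymes of the epoxide cycle were lower, VDE by more. HPD fell to 181 and 188 FPKM, LYC to 39.6 and 38.2 from 51.4 and 51.5, LUT5 to 18.4 and 18.6 and CCD1 to 115 and 113 from 141 and 152.

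In the same seedlings 5 genes that supply precursor were called higher, DXS and HDR of the 7 MEP genes and all 3 prenyl diphosphate genes. Of all genes, 31.7% were called higher there. After rescaling only the calls of DXS, HDR and GGPS1 remained, against 16.1% of all genes. DXS was at 218 and 225 FPKM against 154 and 153 in WT (log2 difference 0.52 ± 0.05 (SE), limma adjusted p = 9.55e-05). HDR, the last MEP enzyme, was at 170.3 and 174 against 125 and 126 FPKM (log2 difference 0.46 ± 0.04 (SE), limma adjusted p = 0.000102), and GGPS1 at 46.0 and 46.4 against 37.0 and 36.5 (log2 difference 0.32 ± 0.05 (SE), limma adjusted p = 0.00103). MDS, an enzyme of the middle of the MEP pathway, fell to 29.9 and 30.4 from 34.9 and 35.7 FPKM, and DXR, MCT, CMK and HDS were not called. The isomerase genes IPP1 (26.5 and 26.3 against 23.9 and 22.1 FPKM) and IPP2 (95.0 and 100.5 against 87.1 and 89.3) differed from WT by 0.19 and 0.15 on the log2 scale, and both calls were lost after rescaling, where that of IPP2 changed sign, and without WT replicate 2 or either cry2-1 replicate, that of IPP2 also without WT replicate 1. PSY was at 76.0 and 75.4 FPKM, called on the deposited scale (0.19) but not after rescaling (0.04). The rise of BCH2 (14.0 and 17.1 FPKM) was lost in 4 alternatives, among them rescaling and leaving out WT replicate 2 or cry2-1 replicate 2. Green-tissue markers in cry2-1 summed to 6161 and 6311 FPKM and root markers to 635 and 623, against 7539 and 6987 and 360.4 and 335 in WT. Neither set moved as 1: by mean, RBCS1A and LHCB2.1 were at 0.767 and 0.864 of WT but CAB3 at 1.21. The endodermal root markers were above WT, and COBL9, EXPA7 and RHD6 below it, at 0.744, 0.522 and 0.896. The part of either set in these results was not tested.

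**Figure D3:**
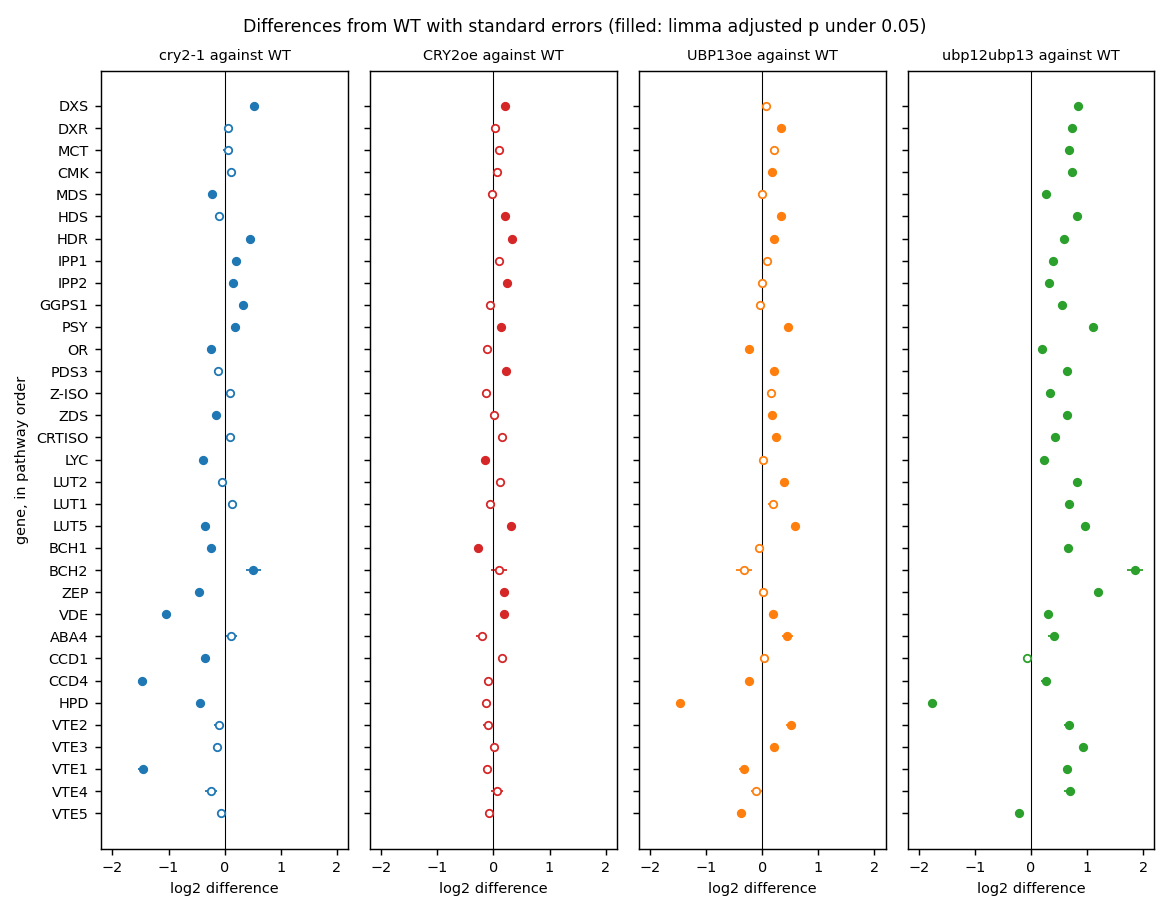
Log2 differences from WT (horizontal axes) of the 33 genes (rows, in pathway order) in the 4 other genotypes, with standard errors; filled circles passed the test. The 4 panels share the same WT libraries. Most circles in the last panel are filled and right of 0, and HPD is far left of 0 in both UBP panels.

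CRY2oe had the fewest calls of the 4 genotypes set against WT. In it 9 genes rose and 2 fell, where 16.5% and 9.63% of 19955 genes were called higher and lower, and rescaled 2 rose and 5 fell, against 10.4% and 15.7%. The median log2 difference was 0.06 over the 33 genes and 0.05 over all genes. Fewer of the 33 genes were called when either CRY2oe replicate was left out, and fewer of all genes as well. Only the rises of HDR and LUT5 held under all 19 alternatives. HDR was at 162 and 154 FPKM against 125 and 126 in WT (log2 difference 0.33 ± 0.04 (SE), limma adjusted p = 0.00162), and LUT5 at 30.0 and 30.3 against 24.2 and 23.7 (log2 difference 0.32 ± 0.05 (SE), limma adjusted p = 0.0026). BCH1 was at 41.8 and 42.8 against 50.8 and 51.7 FPKM (log2 difference -0.27 ± 0.05 (SE), limma adjusted p = 0.00839), a call lost without CRY2oe replicate 1. IPP2 was at 102 and 107 against 87.1 and 89.3 FPKM (log2 difference 0.24 ± 0.05 (SE), limma adjusted p = 0.0108), a call lost after rescaling and without CRY2oe replicate 2. CCD4, VTE1 and VDE, the genes lowest in cry2-1, were at 36.1 and 34.1, 17.5 and 16.0 and 54.8 and 55.6 FPKM in CRY2oe, so only VDE was called against WT (0.19, lost in 4 alternatives). DXS was at 175 and 180.4 FPKM (log2 difference 0.21) and PSY at 72.4 and 73.9 (0.14); both calls were lost after rescaling and without CRY2oe replicate 2, and that of PSY also without replicate 1. Green-tissue markers in CRY2oe summed to 9486 and 9363 FPKM and root markers to 203 and 221. RBCS1A, CAB3 and LHCB2.1 were by mean at 1.16, 1.82 and 1.29 of WT, and 2 of these 3 were called higher. By mean the endodermal root markers were below WT, and COBL9, EXPA7 and RHD6 above it, at 1.27, 1.28 and 1.38 of WT. The part of these markers was not tested.

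The overexpressor was also compared directly with cry2-1, since AT1G04410 was near 0 in both and they differ in CRY2. In CRY2oe 15 of the 33 genes were higher and 5 lower than in cry2-1, where 13.5% and 24.0% of 19956 genes were called higher and lower (17 and 2 rescaled, against 17.4% and 17.1%). The median log2 difference was 0.09 over the 33 genes and -0.06 over all genes. CCD4 was 2.72-fold, VTE1 2.81-fold and VDE 2.43-fold the level in cry2-1 (1.38, 1.35 and 1.24 on the log2 scale, with limma adjusted p of 7.68e-06, 8.38e-06 and 1.5e-06). LUT5 followed, at 30.0 and 30.3 against 18.4 and 18.6 FPKM (log2 difference 0.68 ± 0.05 (SE), limma adjusted p = 1.92e-05), and then ZEP (log2 difference 0.64 ± 0.05 (SE), limma adjusted p = 4.58e-05). DXS and GGPS1 were lower than in cry2-1, with log2 differences of -0.31 and -0.38 (limma adjusted p = 0.00111 and 0.000471). Of the 20 calls, 12 held under all alternatives. Calls were fewer when either replicate of cry2-1 or either replicate of CRY2oe was left out, as they were over all genes.

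Between the UBP lines the difference ran across nearly the whole set. In the libraries labelled ubp12ubp13, 26 genes were higher and 1, HPD, lower than in UBP13oe, where 20.8% and 32.1% of 19956 genes were called higher and lower (29 and 1 rescaled, against 25.3% and 27.0%). The median log2 difference was 0.44 over the 33 genes and -0.06 over all genes. BCH2 was at 41.4 and 40.5 FPKM in the former and 9.04 and 7.40 in UBP13oe, 4.98-fold (log2 difference 2.19 ± 0.14 (SE), limma adjusted p = 1.1e-05). ZEP was 2.26-fold higher (log2 difference 1.17 ± 0.05 (SE), limma adjusted p = 2.38e-06), VTE1 2.03-fold, with 27.9 and 30.1 against 14.2 and 14.3 FPKM, and VTE4 1.82-fold, with 14.8 and 18.6 against 8.84 and 9.53. DXS was at 280.3 and 268 against 165 and 155 FPKM (log2 difference 0.77 ± 0.05 (SE), limma adjusted p = 7.74e-06). BCH2, ZEP, VTE1 and VTE4 were named under a rule that requires no overlap between the 2 lines, so their separation is no result. HPD was at 72.7 and 74.1 against 94.7 and 84.7 FPKM (log2 difference -0.28 ± 0.06 (SE), limma adjusted p = 0.00357). The other 6 genes were not called, among them VDE and ABA4 (0.12 ± 0.04 (SE) and -0.04 ± 0.10 (SE), limma adjusted p = 0.0511 and 0.778). Of the 27 calls, 26 held under all 19 alternatives, Z-ISO being the exception.

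The comparison of the CRY2 lines and that of the UBP lines share no library, so their differences were set side by side. The sign was the same for 19 of the 33 genes, 57.6%, against 59.1% of 19955 genes. Among genes called in both, 12 of 17 had the same sign, against 3611 of 4901 among all genes, 73.7%. A test of the difference between the differences, taken as CRY2oe minus cry2-1 less ubp12ubp13 minus UBP13oe, called 26 of the 33 genes, where it called 38.0% of all genes (20.0% with the CRY2 lines the more positive and 18.0% the less). For 20 of these the difference between the UBP lines was the more positive, led by BCH2 (-2.60 ± 0.20 (SE), limma adjusted p = 6e-05), DXS (-1.09 ± 0.07 (SE)) and GGPS1 (-0.97 ± 0.07 (SE)). For 6, LUT5, VDE, CCD1, CCD4, HPD and VTE1, the difference between the CRY2 lines was the more positive, by up to 1.13 ± 0.06 (SE) for VDE (limma adjusted p = 1.33e-05). PSY, for example, did not pass the test between the CRY2 lines (-0.05 ± 0.04 (SE), limma adjusted p = 0.381) and stood 1.58-fold higher between the UBP lines (log2 difference 0.65 ± 0.04 (SE), limma adjusted p = 9.46e-06).

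**Figure D4:**
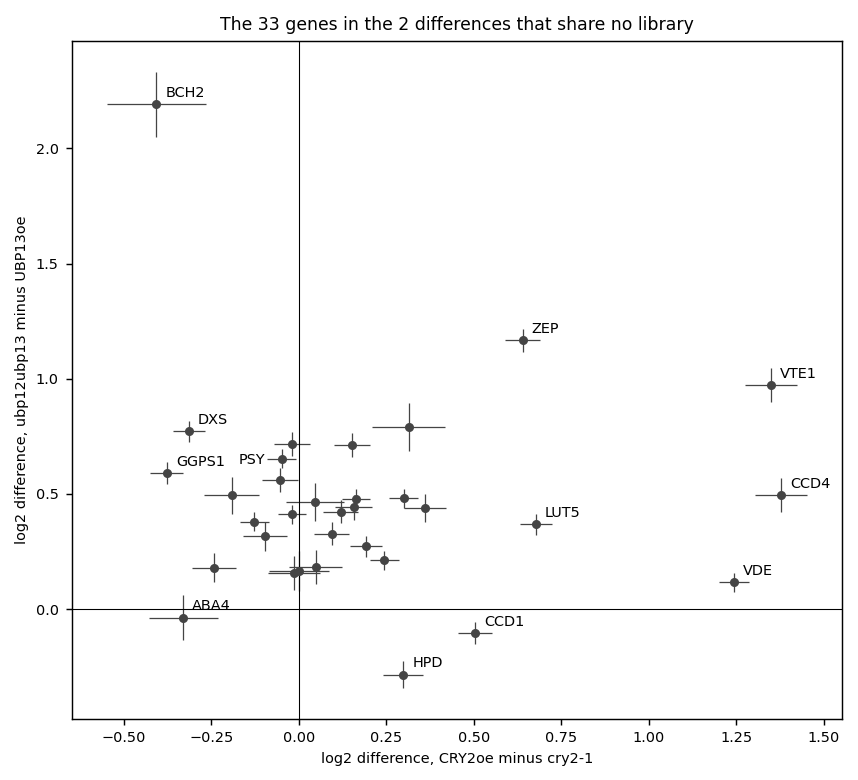
Log2 difference of CRY2oe from cry2-1 (horizontal) and of the libraries labelled ubp12ubp13 from UBP13oe (vertical) for the 33 genes, with standard errors. VDE, CCD4 and VTE1 lie far right, BCH2 far up at 2.19 with a negative horizontal value, and HPD below 0.

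Genes beside the 33 in plastid isoprenoid metabolism were read from a list of 19, of which DXPS1 was listed at 0 in every library and 18 were tested. In the libraries labelled ubp12ubp13, 13 rose and 1 fell against WT (13 and 1 rescaled), with a median log2 difference of 0.47. Of all genes, 34.6% were called higher and 22.2% lower there. CHLP, the geranylgeranyl reductase that makes phytyl tails, was at 1028 and 1000.4 FPKM against 458 and 459 (log2 difference 1.14 ± 0.05 (SE), limma adjusted p = 1.64e-06), and SPS2, which makes the tail of plastoquinone, at 48.3 and 53.9 against 23.2 and 22.1. HST, which joins that tail to homogentisate, was at 42.9 and 41.8 against 21.9 and 20.5 FPKM; its locus (AT3G11945, TAIR10 chromosome 3, 3779839 to 3782954) is close to UBP13 (AT3G11910, TAIR10 chromosome 3, 3761388 to 3770563). The gene that fell was TAT7, a tyrosine aminotransferase whose product HPD uses, at 46.9 and 54.4 against 78.8 and 107 FPKM (log2 difference -0.85 ± 0.13 (SE), limma adjusted p = 0.00063), and it fell in UBP13oe too, to 43.5 and 41.7 FPKM. In cry2-1 2 of the 18 rose and 10 fell (1 and 12 rescaled), CHLP being one of the risers, at 808 and 885 FPKM. In CRY2oe 3 rose and 0 fell (2 and 3 rescaled), and in UBP13oe 6 rose and 2 fell (1 and 5 rescaled). The shares of all genes called higher and lower were 31.7% and 11.8% in cry2-1. They were 16.5% and 9.63% in CRY2oe and 35.2% and 8.74% in UBP13oe.

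The cytosol makes the same building blocks by the mevalonate pathway, and its 11 listed genes divided. In the libraries labelled ubp12ubp13 5 rose and 3 fell (4 and 4 rescaled), with a median log2 difference of 0.09, equal to that of all genes. HMG1, the main HMG-CoA reductase and rate-limiting enzyme, was at 327 and 308 FPKM against 775 and 775 in WT (log2 difference -1.29 ± 0.05 (SE), limma adjusted p = 8.13e-07). It was below WT in every other genotype as well, at 547 and 531 FPKM in cry2-1, 609 and 589 in CRY2oe and 591 and 558 in UBP13oe, each called. FPS2, a farnesyl diphosphate synthase, rose in the libraries labelled ubp12ubp13 to 21.3 and 20.4 from 13.3 and 12.3 FPKM. In cry2-1 6 of the 11 rose and 1 fell (4 and 1 rescaled), in UBP13oe 5 and 2 (1 and 3) and in CRY2oe 1 and 1 (0 and 2). Of all genes, 34.6% were called higher and 22.2% lower in the libraries labelled ubp12ubp13, and 31.7% and 11.8% in cry2-1. The shares were 35.2% and 8.74% in UBP13oe and 16.5% and 9.63% in CRY2oe.

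**Figure D5:**
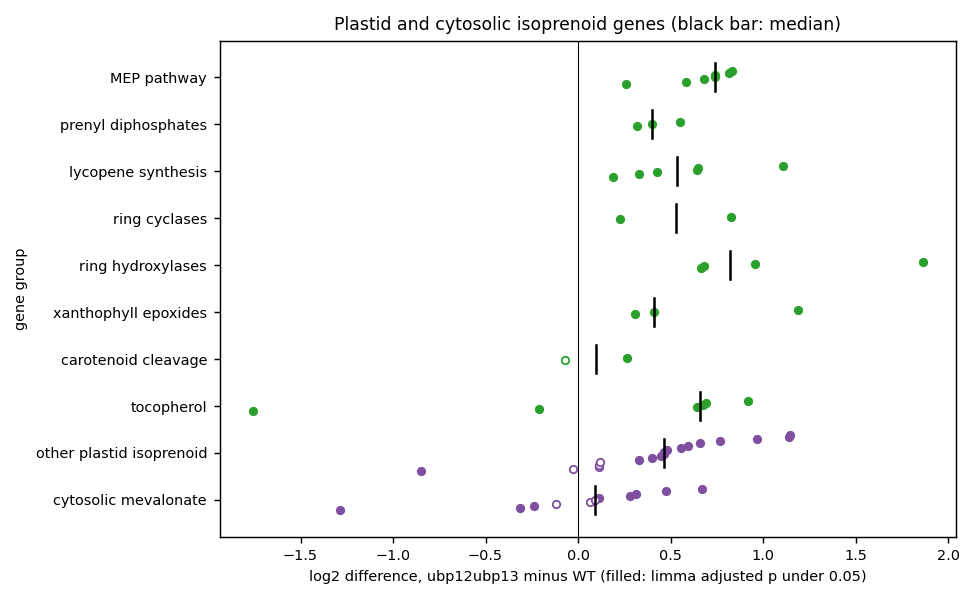
Log2 difference from WT in the libraries labelled ubp12ubp13 for the 8 groups of the 33 genes (green) and for the other plastid isoprenoid and cytosolic mevalonate genes (purple). Each circle is a gene, filled where the test was passed, and black bars are medians, 0.74 for the MEP pathway and 0.09 for the mevalonate pathway.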

How the data were processed

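Libraries came from poly(A) RNA by a directional protocol, per the labels' protocols, and STAR and Cufflinks 2.1.1 were used with TAIR10, per the submitters' processing notes. No source used here states whether counting kept to strand. FPKM values were estimated by the authors for each library, per the file headers. Count models were not used, since FPKM lack whole reads. Estimates marked failed or skipped for excess data (15 entries at 10 loci) were taken as missing; none is of the 33 genes. The labels call the replicates biological without saying what was pooled, and give no batch.

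All 10 libraries entered 1 limma 3.58.1 fit (R 4.3.3; 19957 genes, variance trend, genotype means, residual df 5 and prior df 3.15), two-sided, adjusted over all genes tested in each comparison. Fold changes on the log2(FPKM + 1) scale understate changes of low genes. The script was tested on simulated data. The alternatives tried were pseudocount 0.1, no filter, a mean of 5 FPKM, rescaling by median ratio or by the sum of nuclear genes, a replicate block, only the libraries compared, no variance trend, failed estimates as 0, and each library left out. Depth came from 849 genes without introns, where 92.9% to 97.7% of 65 to 100 low values per library were whole within 0.1 fragment. The floors of 3 fragments cover counting error only and are lower in the deeper libraries. The ± values are standard errors from the limma fit, not counting intervals. Coordinates are those of the files (TAIR10, from 1), and promoters those of TAIR10.1, read with Python 3.11.15; 1 promoter sequence is not reported here. Of the 33 genes, 11 overlap another locus in the files, by under 160 bases except GGPS1 (451) and LUT1 (1900), whose values may hold fragments of the neighbour. The members and lists were chosen with earlier results of these data known. Text examples are PSY, DXS and, in each comparison, the 4 called genes with the largest difference whose libraries do not overlap, with the other members given by value or count, and up to 3 called genes of each further list; TAT7, NCED3 and PIF1 were named outside this rule, after their values were seen.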

Additional observations from a re-analysis of the deposited data

How the results depend on the processing

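Of the 154 calls of the 33 genes over the 6 comparisons and the difference of differences, 111 held with the same sign under every alternative run. The count of calls in CRY2oe against WT went from 11 to 7 after median-of-ratios rescaling and to 5 with only the libraries compared, and ranged from 4 to 11 over leaving out 1 library. In UBP13oe against WT it went from 19 to 12 with only the libraries compared and ranged from 12 to 20 over leaving out 1 library, with 12 without UBP13oe replicate 2. In CRY2oe against cry2-1 it ranged from 13 to 20. The other counts stayed within 1.5 times of the main one. Rescaling reversed 2 called values, IPP2 in cry2-1 (0.15 to -0.0089) and ZDS in UBP13oe (0.17 to -0.0065), and ended 22 more. A pseudocount of 0.1, the filter on a mean of 5 FPKM and failed estimates taken as 0 ended none. Replicates with the same number deviated together only weakly (correlations over genes of -0.0884 to 0.146 between genotypes). With 1 replicate contrast per genotype and no batch in the labels, this cannot decide whether they shared a batch. With the replicate block 18 genes were called in cry2-1, 11 in CRY2oe, 20 in UBP13oe and 32 in the libraries labelled ubp12ubp13 against WT, 17 between the CRY2 lines, 27 between the UBP lines and 25 for the difference of differences. Where a library was left out, the single one left of that genotype was assumed to vary like the others. The cause of these changes was not tested. With 2 libraries a genotype, small differences rest on the spread shared over genes.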

Other observations

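Carotenoids also feed abscisic acid and strigolactone, and 4 of the 9 listed genes of those routes passed the filter on low values. Of these 4, 3 rose and 0 fell against WT in the libraries labelled ubp12ubp13 (1 and 0 rescaled), 2 and 0 in cry2-1 (1 and 0), 3 and 1 in CRY2oe (2 and 1) and 2 and 0 in UBP13oe (1 and 0). Shares of all genes called higher and lower were 34.6% and 22.2% in the libraries labelled ubp12ubp13 and 31.7% and 11.8% in cry2-1. They were 16.5% and 9.63% in CRY2oe and 35.2% and 8.74% in UBP13oe. ABA2, which makes abscisic aldehyde from xanthoxin, was at 17.4 and 19.0 FPKM in the libraries labelled ubp12ubp13 against 8.75 and 8.74 in WT (log2 difference 0.98 ± 0.07 (SE), limma adjusted p = 8.15e-06), and this held under all 19 alternatives. NCED3, the dioxygenase that commits epoxycarotenoids to abscisic acid under stress, was at 4.46 and 6.93 against 7.21 and 7.06 FPKM and not called (limma adjusted p = 0.131). CCD8, a strigolactone gene, stood at 2.63 and 3.49 FPKM in WT. It was at 6.43 and 6.78 FPKM in cry2-1 and 5.39 and 6.11 in UBP13oe, with smaller differences in CRY2oe (5.53 and 5.22) and the libraries labelled ubp12ubp13 (3.92 and 4.74). It was called higher in all 4, though in the libraries labelled ubp12ubp13 the call was lost after rescaling and without WT replicate 1 or replicate 2 of that label, and these comparisons share the WT libraries.

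Of 7 listed regulators of PSY, 2 were called higher and 2 lower than WT in the libraries labelled ubp12ubp13 (1 and 3 after rescaling), 2 and 2 in cry2-1 (2 and 2), 2 and 2 in CRY2oe (0 and 2) and 1 and 2 in UBP13oe (0 and 4). Shares of all genes called higher and lower were 34.6% and 22.2% in the libraries labelled ubp12ubp13 and 31.7% and 11.8% in cry2-1. They were 16.5% and 9.63% in CRY2oe and 35.2% and 8.74% in UBP13oe. HY5 was lower than WT in each other genotype, least so in CRY2oe and UBP13oe (-0.30 and -0.30 on the log2 scale, both calls lost without replicate 1 of WT and without either replicate of the line) and most in cry2-1 (20.9 and 20.3 against 42.8 and 40.3 FPKM, log2 difference -0.98 ± 0.08 (SE), limma adjusted p = 6.84e-05). Its relative HYH was at 21.7 and 22.1 FPKM in cry2-1 and 48.7 and 56.2 in the libraries labelled ubp12ubp13, against 38.2 and 38.7 in WT. PIF4 was at 22.8 and 21.5 FPKM in the latter against 47.8 and 49.2 in WT (log2 difference -1.10 ± 0.06 (SE), limma adjusted p = 2.06e-06), and PIF3 was at 24.3 and 23.6 FPKM in cry2-1 against 10.7 and 11.1. PIF1 was not called against WT in the libraries labelled ubp12ubp13 (-0.13 ± 0.06 (SE), limma adjusted p = 0.086).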
